A study of Homo sapiens with 26 samples.

Results

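U2OS cells, an established human osteosarcoma line, were followed through a second day in acidic medium and compared with their first day in it. Of the 26 libraries of the series, 12 from pH 6.3 were used. The second day was 28, 32, 36, 40, 44 and 48 h after the change of medium, and the first day 4, 8, 12, 16, 20 and 24 h, with 1 library at each time. Each library was paired with the one harvested alongside it, 24 h apart and so, for a rhythm of 24 h, at the same circadian phase. The 52 h library had no partner and was left out of the pairs. The same 6 pairs at pH 7.4 gave the comparison in neutral medium. All cells carried a luciferase reporter, Arntl::dLUC, for the clock gene ARNTL. Both media were bicarbonate-free DMEM with serum and the buffers PIPES and HEPES, differed in the pH to which they were adjusted, and held dexamethasone, a glucocorticoid drug that brings the clocks of a culture into step. Dishes were sealed and kept without added carbon dioxide. The second-day dishes were seeded and treated a day before the first-day dishes, per the labels' protocols, so day in medium, time since dexamethasone and set of plates cannot be told apart. U2OS is a single line, and every time point was sampled once at each pH. The p-values therefore measure the spread over 6 harvest pairs, which holds change within a day as well as noise.

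Acidic medium is known to slow glycolysis and to restrain mTORC1, the kinase complex that couples nutrient supply to growth. Cells short of amino acids or under other stress raise translation of ATF4, a transcription factor that drives amino acid synthesis, uptake and tRNA charging. Attached cells also read tension and density through the factors SRF and YAP, whose targets include actin, contractile and matrix genes. The circadian clock runs on ARNTL and CLOCK, which bind E-boxes and induce their own repressors, the PER and CRY genes, and output factors such as DBP and TEF.

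The values are FPKM, fragments scaled to transcript length and to the library's mapped fragments, as the authors deposited them. Depth, estimated from the steps between low values, was 11.1 M (mega) fragments in the pH 6.3 library at 8 h and 9.70 M in the pH 7.4 library at 12 h, and 19.5 to 35.8 M in the other 24. In the pH 6.3 library at 20 h, each gene's deviation from its 12-library mean correlated across genes with GC content at r = 0.68, and between −0.49 and 0.30 in the other 11 libraries of the pH 6.3 pairs. At pH 7.4 it ranged from −0.72 at 48 h to 0.79 at 28 h. Transcripts of mitochondrial DNA took 13.3% to 15.2% of summed FPKM on the second day and 10.6% to 16.6% on the first. Of 11 osteoblast and mesenchymal markers 7 were tested, among them RUNX2, ALPL, COL1A1 and VIM. The osteoblast factor SP7 was listed at 0 in all 12 libraries, and COL1A2, BGLAP and IBSP lay below the filter. Of 10 leukocyte markers 2 were tested, with a sum of 7.61 to 17.0 FPKM on the second day and 8.75 to 17.6 FPKM on the first.

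The acute-phase genes SAA1 and SAA2 and the pyruvate carrier gene MPC1 were among the genes most raised on the second acidic day, and 13 of 31 tested ATF4 targets rose. Of 43 tested replication genes 23 fell, as did 15 of 23 matrix genes and 12 of 15 actin and SRF targets. Among 11592 genes averaging 1 FPKM or more over the 12 libraries, 1985 rose and 1394 fell (adjusted p below 0.05, limma's moderated test of log2(FPKM + 1) with the harvest pair as a block). These are 17.1% and 12.0% of the genes tested. At least 2-fold changes were seen in 300 risen genes (2.59%) and 241 fallen genes (2.08%). In 989 genes (8.53%) all 6 second-day values lay above all 6 first-day values, and in 626 genes (5.4%) all lay below. In 1802 genes (15.5%) the second day was higher in 6 of 6 pairs, and in 1262 (10.9%) it was lower in 6 of 6. The median difference over all tested genes was 0.06 on the log2 scale. In bulk RNA, fewer cells of a kind and less RNA per cell cannot be told apart, and FPKM are shares of a library, not amounts per cell.

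The counts depended on the pairs used. Without the 8 and 32 h pair 1061 genes rose and 798 fell, without the 12 and 36 h pair 908 and 699, and without the 16 and 40 h pair 1155 and 891. With the 8 and 32 h and the 20 and 44 h pairs both left out, 314 rose and 213 fell. With upper-quartile scaling of each library 1636 rose and 1702 fell. Of the 129 genes that a fixed rule named, 92 kept their call without each pair in turn. Those of the 129 whose change is described below are among the 92 unless a lost call is given. With 4 pairs 57 of the 129 kept it. Members of the lists described beyond these 129 were chosen after their values were seen and are not counted among the 92.

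Much of the change came within the first day, in uneven steps. Levels are given relative to each gene's own first-day mean (medians, log2 scale). The 1985 risen genes were at −0.12 at 4 h, −0.27 at 8 h and −0.24 at 12 h. They reached 0.20 at 20 h and 0.43 at 24 h, and then 0.57 at 28 h and 0.74 at 48 h. The 1394 fallen genes stood at 0.24 at 4 h, 0.12 at 12 h, −0.14 at 16 h and −0.11 at 20 h. They were at −0.38 at 24 h, −0.60 at 28 h and −0.65 at 48 h. Within the first day alone, from 1 set of plates, the mean of 16 to 24 h minus that of 4 to 12 h had a median of 0.43 for the risen genes, and the fallen genes dropped by a median of 0.36. Between 24 and 28 h, where the set of plates also changed, the median step in the called direction was 0.15 for risen and 0.19 for fallen genes. In neutral medium the same step of these genes went the other way, at −0.11 and −0.14 in the called direction. Within the second day the same measure, 40 to 48 h minus 28 to 36 h, came to 0.09 and 0.10. These genes were chosen on the same libraries, so their medians are a description. The 52 h library took no part in the choice but shared its plates with the second day. In it 1979 of the 1985 risen genes lay above their first-day mean and 1391 of the 1394 fallen genes below it. That first-day mean was itself used in the choice, so these counts too are a description. The share over all tested genes is not given.

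**Figure D1:**
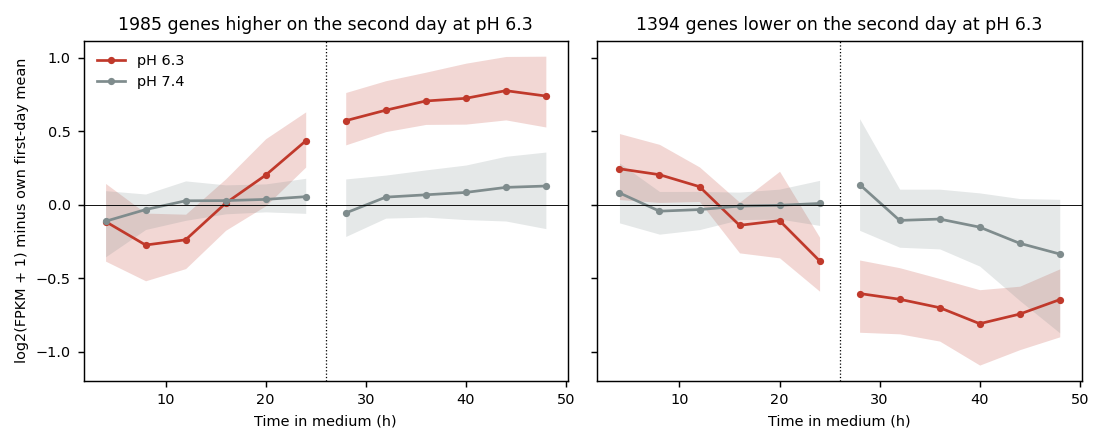
Median level of the called genes at each time, as log2(FPKM + 1) minus each gene's own first-day mean in the same medium, for 1985 genes higher (left) and 1394 genes lower (right) on the second day at pH 6.3. Lines are medians at pH 6.3 (red) and pH 7.4 (grey), bands the range between the quartiles of the genes, and the dotted line the change of plate set. At pH 6.3 the medians moved mostly within the first day, to 0.43 and −0.38 at 24 h, and little after 28 h.

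Taken pair by pair, the distance between the days shrank as the first-day partner got later. The median absolute log2 difference over tested genes was 0.51 for 28 against 4 h, 0.51 for 32 against 8 h and 0.48 for 36 against 12 h. It was 0.37 for 40 against 16 h, 0.36 for 44 against 20 h and 0.28 for 48 against 24 h. In neutral medium the same pairs gave 0.42, 0.24, 0.23, 0.22, 0.29 and 0.33, with no such order.

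With all 6 pairs, fewer genes passed in neutral medium. At pH 7.4 the second day was higher in 449 genes (3.87%) and lower in 351 (3.03%), 6.9% in all. With a correction for GC content the split was 483 and 724, and without the 4 and 28 h pair 1256 and 1641, against 1815 and 1138 at pH 6.3 without that pair. The totals called in each medium were then close, at 2953 genes in acidic and 2897 in neutral medium. Without any one of the pairs that start at 8, 12, 16 or 20 h, 71 to 111 rose and 47 to 77 fell. Without the 24 and 48 h pair 250 rose and 211 fell. With the 8 and 32 h and the 20 and 44 h pairs both left out, 0 genes passed at pH 7.4. Calls at pH 7.4 given below, of single genes and of list members, are from all 6 pairs. Whether each held without a pair is not given. Both media shared 135 risen genes, which are 6.80% of those at pH 6.3 and 30.1% of those at pH 7.4, and 134 fallen genes, 9.61% and 38.2%. The day effect itself differed between media in 569 genes towards higher at pH 6.3 (4.91%) and in 352 towards lower (3.04%), 7.95% in all, in a test on 6 differences of differences. Of the 569, 506 had also risen at pH 6.3, and of the 352, 277 had fallen. That split was 412 and 474 with upper-quartile scaling and 487 and 513 with quantile normalization.

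The counts of differences between media depended on single pairs. Without the 12 and 36 h pair 24 genes passed upwards and 29 downwards, without the 16 and 40 h pair 39 and 35, without the 8 and 32 h pair 56 and 51, and without the 20 and 44 h pair 107 and 86. Without the 4 and 28 h pair the counts were 1124 and 578, and without the 24 and 48 h pair 1089 and 761. With the 8 and 32 h and the 20 and 44 h pairs both left out, limma called 0 genes in either direction, and 1326 had an unadjusted p under 0.05. Of 59 named genes whose day effect differed between media, 14 did so without each pair in turn. They were SAA1, SAA2, AKR1C1, C8orf4, MPC1, NPRL2, SOD2 and SULF1, which were higher, and CXCL14, FABP7, FMNL2, HMGA2, SGK1 and TMSB15A, which were lower. Their largest adjusted p without a pair ran from 0.02 to 0.0469. Outside the 59, the ATF4 targets ASNS and PSAT1 also differed without each pair in turn (largest adjusted p 0.0357 and 0.029). A difference between media given for any other gene below was lost without 1 or more of the pairs.

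**Figure D2:**
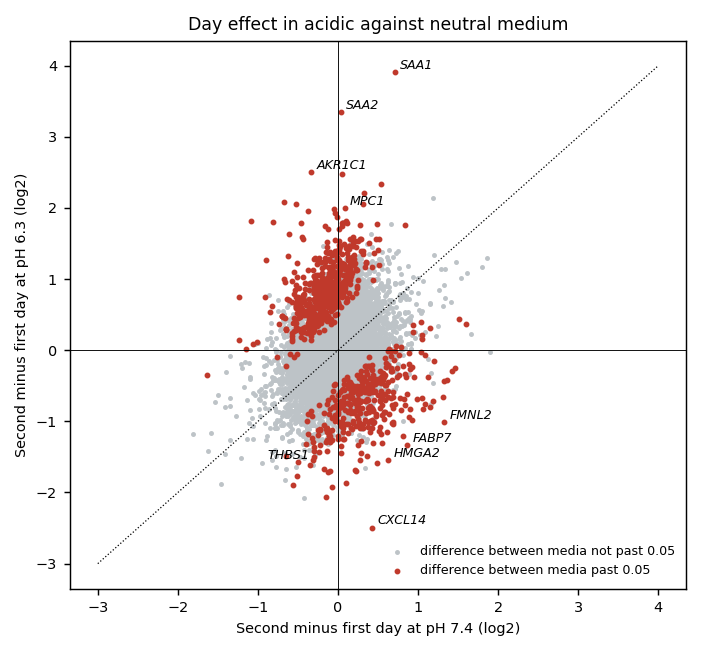
Second minus first day on the log2(FPKM + 1) scale for 11592 genes, at pH 6.3 (vertical) against pH 7.4 (horizontal). Each point is 1 gene, red where the day effect differed between media at an adjusted p below 0.05 (921 genes), and the dotted line marks equal effects. SAA1, near the top with 3.90 at pH 6.3, had 0.71 at pH 7.4, and CXCL14, near the bottom with −2.49, had 0.43.

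The largest increases by the rule were those of SAA1 and SAA2. SAA1 and SAA2 encode serum amyloid A, an acute-phase protein that liver and inflamed tissues secrete. SAA1 (ENSG00000173432, chromosome 11 from 18266174 to 18269977, GRCh38) had 126 to 566 FPKM on the second day, with a median of 243, against 1.25 to 84.9 FPKM on the first day, with a median of 22.2. Every second-day value lay above every first-day value, and the level was lowest at 4 h and highest at 48 h. The difference was 3.90 (SE 0.41, adjusted p = 0.000555) on the log2 scale. SAA2, chromosome 11 from 18239223 to 18248643, had 19 to 71.9 FPKM on the second day, with a median of 30.1, against 0.249 to 13.1 FPKM on the first day, with a median of 2.08, with no overlap. Its difference was 3.34 (SE 0.26, adjusted p = 0.000141). Reads can be shared between these near-identical genes, so how the change divides between them is uncertain. At pH 7.4 SAA1 had 11.3 to 29.4 FPKM on the second day and 3.33 to 15 FPKM on the first, and the difference of the day effects between media was 3.20 for SAA1 and 3.31 for SAA2 (adjusted p = 0.0029 and 0.00332).

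CXCL8, the neutrophil chemokine IL-8, had 15.5 to 42.3 FPKM on the second day, with a median of 27.8, against 2.77 to 10.2 FPKM on the first day, with a median of 5.73. The days did not overlap, and within the first day the level dipped to 2.77 FPKM at 16 h, so the course was not a steady climb. Its difference was 2.05 (SE 0.28, adjusted p = 0.00139). In neutral medium CXCL8 stood at 109 FPKM at 4 h and at 6.54 FPKM or less in the other neutral libraries of the pairs from 8 h on. Of 16 tested inflammatory and NF-κB genes 6 rose and none fell, with a median of 0.53 against 0.06 over all genes, of which 17.1% rose and 12.0% fell. The risen genes were SAA1, SAA2, CXCL8, IL6, CCL20 and NFKB2. The cytokine gene IL6 had a median of 4.08 FPKM on the second day, against 1.1 FPKM on the first (difference 1.28, SE 0.24, adjusted p = 0.00479), and the chemokine gene CCL20 a median of 33.7 FPKM on the second day, against 14.1 FPKM on the first (difference 1.06, SE 0.15, adjusted p = 0.00185). With 4 pairs 4 of the 16 still rose. Of the tested leukocyte markers, CD68, which also encodes a lysosomal protein, rose (difference 1.05, SE 0.20, adjusted p = 0.00487), and LCP1 differed by −0.66 (adjusted p = 0.057). PTPRC, CD3E, CD14 and LYZ lay below the filter.

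Of 12 tested interferon-induced genes 3 rose and 1 fell (25.0% and 8.33%, against 17.1% and 12.0% of all genes). IFIH1, which encodes the RNA sensor MDA5, had 5.46 to 7.5 FPKM on the second day, with a median of 6.03, against 0.559 to 4.98 FPKM on the first day, with a median of 1.93, with no overlap, and a difference of 1.31 (SE 0.22, adjusted p = 0.00331). DDX58, the RNA sensor RIG-I, differed by 0.67 (SE 0.13, adjusted p = 0.00668). Both sensors also rose in neutral medium, by 0.61 and 1.15 (adjusted p = 0.0288 and 0.00212). GBP2, an interferon-induced GTPase gene outside this list, had 18.4 to 36.8 FPKM on the second day, with a median of 30.8, against 3.52 to 10.8 FPKM on the first day, with a median of 5.02. Its days did not overlap, and it differed by 2.21 (SE 0.18, adjusted p = 0.000148), against 0.33 in neutral medium (adjusted p = 0.258). SOD2, the superoxide dismutase of mitochondria and a known target of both FOXO and NF-κB factors, had 155 to 297 FPKM on the second day, with a median of 197, against 48.6 to 137 FPKM on the first day, with a median of 68.6. Its level was higher at each later time through 36 h, and the difference was 1.47 (SE 0.12, adjusted p = 0.000185). At pH 7.4 SOD2 had 50.5 to 57.8 FPKM on the second day and 44.9 to 66.9 FPKM on the first, with overlapping days.

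Several other increases were larger than that of CXCL8. AKR1C1, an aldo-keto reductase that reduces steroids, had 5.72 to 11.9 FPKM on the second day, with a median of 11.1, against 0.174 to 2.32 FPKM on the first day, with a median of 0.955. The days did not overlap, and the difference was 2.50 (SE 0.19, adjusted p = 0.000141), with reads that the near-identical AKR1C genes can share. SULF1, which trims sulfates from heparan sulfate at the cell surface, had 4.25 to 15.4 FPKM on the second day, with a median of 10.5, against 0.401 to 2.02 FPKM on the first day, with a median of 0.676 and differed by 2.48 (SE 0.19, adjusted p = 0.000141). RANBP3L differed by 2.34 (SE 0.16, adjusted p = 0.000108) and BEX5 by 2.06 (SE 0.24, adjusted p = 0.000881). EAF2, a partner of transcription elongation factors, came after CXCL8, at 1.98 (SE 0.27, adjusted p = 0.00139). SPINK1, a secreted trypsin inhibitor, differed by 2.13 (SE 0.24, adjusted p = 0.000742) and also rose at pH 7.4, by 1.18 (adjusted p = 0.0229). RP11-598P20.5, a gene known by the name of its clone, differed by 2.09 (SE 0.31, adjusted p = 0.0019). In all of these the second-day values lay above the first-day values without overlap. C8orf4 had 8.5 to 16.3 FPKM on the second day, with a median of 12.1. On the first day it had 0.994 to 10.2 FPKM, with a median of 1.9, with overlap. Its differences had opposite signs, 1.82 at pH 6.3 and −1.09 at pH 7.4 (adjusted p = 0.00188 and 0.0384).

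**Figure D3:**
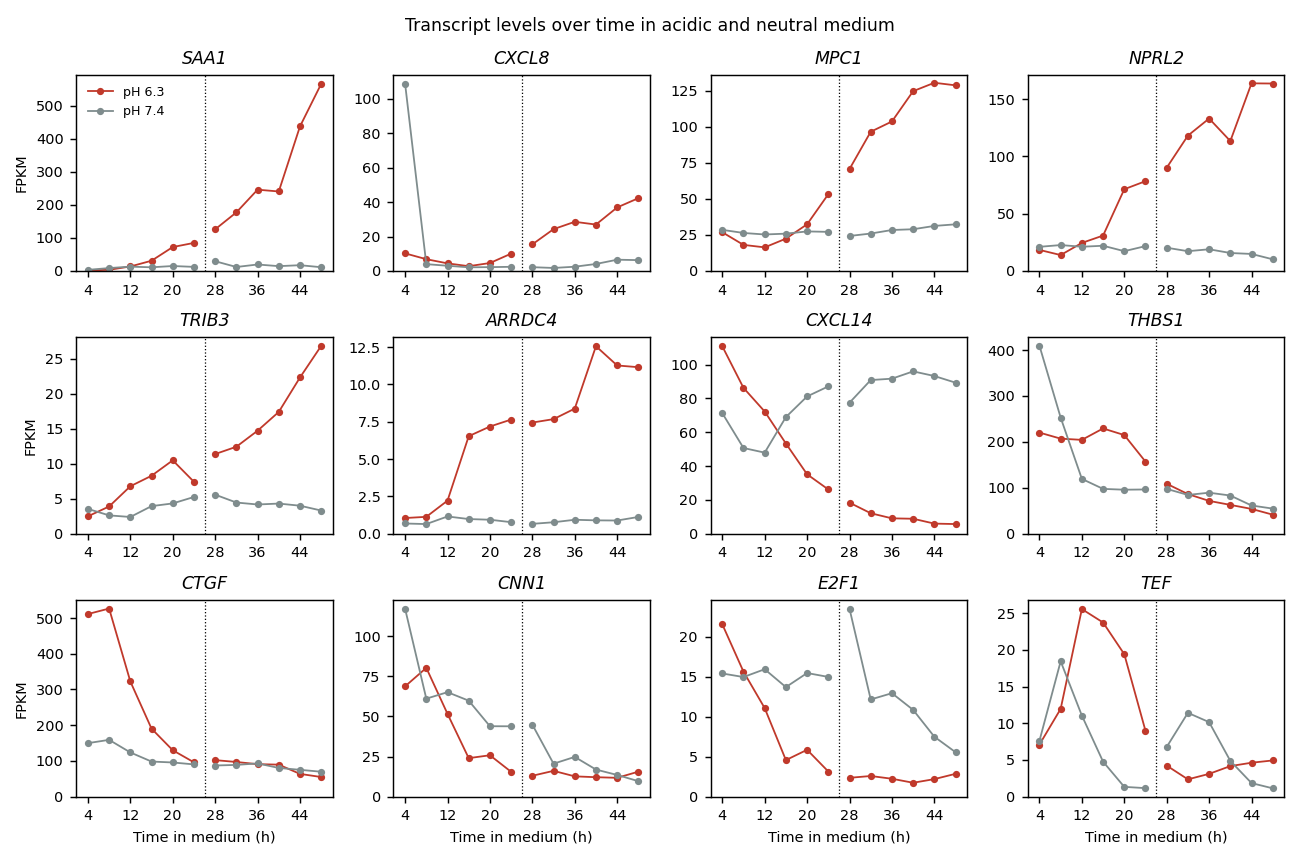
FPKM at each time in medium for 12 genes, with pH 6.3 in red and pH 7.4 in grey and 1 library per point. The dotted line marks the change of plate set between 24 and 28 h. At pH 6.3 SAA1 had 84.9 FPKM at 24 h and 126 FPKM at 28 h.

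More ATF4 targets rose than fell on the second acidic day, and the reverse held on the second neutral day. Of 31 tested, 13 rose and 1 fell at pH 6.3, and at pH 7.4 none rose and 8 fell, against 3.87% and 3.03% of all genes. Their median difference was 0.48 at pH 6.3 and −0.37 at pH 7.4, and that of the difference between media was 0.89, against 0.06, −0.02 and 0.09 over all genes. The day effect differed between media in 12 of the 31, all towards higher at pH 6.3. TRIB3, a pseudokinase that feeds back on ATF4, had 11.4 to 26.9 FPKM on the second day, with a median of 16.1, against 2.49 to 10.5 FPKM on the first day, with a median of 7.11, with no overlap. Its difference was 1.34 (SE 0.17, adjusted p = 0.00106). GDF15, a stress-induced hormone gene, had 3.64 to 26.4 FPKM on the second day, with a median of 9, against 0.427 to 8.84 FPKM on the first day, with a median of 3.49, with overlap, and differed by 1.37 (SE 0.32, adjusted p = 0.0118). SLC38A2, an amino acid transporter gene, was the 1 that fell (difference −0.62, SE 0.16, adjusted p = 0.0197), a call lost without the 8 and 32 h pair, the 12 and 36 h pair or the 16 and 40 h pair, where the adjusted p reached 0.0712, and under quantile normalization (adjusted p = 0.0772).

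Genes of amino acid synthesis were among the risen ATF4 targets. ASNS, asparagine synthetase, had 133 to 203 FPKM on the second day, with a median of 155, against 55.9 to 100.4 FPKM on the first day, with a median of 88.7, with no overlap, and differed by 0.92 (SE 0.13, adjusted p = 0.00155) at pH 6.3 and by −0.53 at pH 7.4 (adjusted p = 0.0146). CTH, which makes cysteine from cystathionine, differed by 1.32 (SE 0.24, adjusted p = 0.00459) and by −0.63 at pH 7.4 (adjusted p = 0.0291). The folate enzyme gene ALDH1L2 differed by 1.30 (SE 0.19, adjusted p = 0.00204), the alanine transaminase gene GPT2 by 1.13 (SE 0.17, adjusted p = 0.00241) and the serine synthesis gene PSAT1 by 0.79 (SE 0.13, adjusted p = 0.00267). FGF21, a stress-induced hormone, was low, at 1.02 to 5.12 FPKM on the second day, with a median of 1.53, against 0 to 0.642 FPKM on the first day, with a median of 0.297. It differed by 1.30 (SE 0.19, adjusted p = 0.00179). Cytosolic tRNA synthetases, several of which ATF4 also induces, moved alike. Of 20 tested, 8 rose and none fell at pH 6.3 and none rose and 5 fell at pH 7.4, with medians of 0.30 and −0.26. EPRS, which charges glutamate and proline, had 97.5 to 124 FPKM on the second day, with a median of 112, against 46.8 to 82 FPKM on the first day, with a median of 62.1, with no overlap (difference 0.83, SE 0.14, adjusted p = 0.00294). With 4 pairs 8 of the 31 ATF4 targets rose and none of the 20 synthetase genes did.

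The promoters of ASNS and FGF21 are shown because both genes rose and both hold the core of the element that ATF4 dimers bind. The windows run from 250 bases before to 50 bases after the RefSeq start (GRCh38.p14), for ASNS chr7:97872359-97872658, minus strand, and for FGF21 chr19:48755274-48755573, plus strand. They are written 5′ to 3′ on the gene's strand, with each match to TGATGNAA, on either strand, in capitals.
ASNS: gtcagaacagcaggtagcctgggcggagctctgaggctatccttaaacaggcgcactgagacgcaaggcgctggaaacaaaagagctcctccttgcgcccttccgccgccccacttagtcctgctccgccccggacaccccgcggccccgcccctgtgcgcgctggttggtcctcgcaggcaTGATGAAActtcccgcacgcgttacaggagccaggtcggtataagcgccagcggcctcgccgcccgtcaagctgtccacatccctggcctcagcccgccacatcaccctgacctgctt
FGF21: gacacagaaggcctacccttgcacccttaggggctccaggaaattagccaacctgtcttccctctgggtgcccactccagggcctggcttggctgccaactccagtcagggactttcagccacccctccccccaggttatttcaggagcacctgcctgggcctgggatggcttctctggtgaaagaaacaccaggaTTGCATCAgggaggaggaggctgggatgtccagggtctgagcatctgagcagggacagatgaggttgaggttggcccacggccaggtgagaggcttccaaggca
The match starts 68 bases before the start of ASNS and 54 bases before that of FGF21. Of the 31 targets 25 had a promoter in the table, and 6 of these held a match, against 3.67% of all 27305 promoters. ASNS, CHAC1 and FGF21 of the 6 rose, and ATF3, SLC3A2 and SLC7A1 did not pass the test. A match describes letters in the window and is not a binding site. CHAC1 lost its call without 4 of the pairs.

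The pyruvate carrier gene MPC1 rose on the second day, and 8 of 20 glycolysis genes fell. MPC1 encodes a subunit of the carrier that takes pyruvate into mitochondria, and had 70.7 to 130.5 FPKM on the second day, with a median of 114, against 16.4 to 53.2 FPKM on the first day, with a median of 24.6. The gene lies on chromosome 6 from 166364919 to 166383013 (GRCh38). The days did not overlap, the first-day low was at 12 h, and the difference was 2.0 (SE 0.19, adjusted p = 0.000318), against 0.08 at pH 7.4. Its partner gene MPC2 differed by 0.27 (adjusted p = 0.135). Of 13 tested genes of the pyruvate dehydrogenase switch 3 rose (MPC1, PDHB and PDHX) and 2 fell (PDK2 and PDK4). These are 23.1% and 15.4%, not far from the 17.1% and 12.0% of all genes. The calls of PDHB, PDHX, PDK2 and PDK4 were each lost without 1 or more pairs, with adjusted p up to 0.13, 0.0517, 0.0793 and 0.0999.

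Of the 20 tested glycolysis genes 3 rose, with a median of −0.40. GAPDH had 1131 to 1728 FPKM on the second day, with a median of 1549, against 1874 to 3506 FPKM on the first day, with a median of 2886, with no overlap, and differed by −0.86 (SE 0.12, adjusted p = 0.00156). PKM, pyruvate kinase, chosen after its values were seen, fell by 0.85 (SE 0.09, adjusted p = 0.000637), and TPI1, triose phosphate isomerase, by 0.88 (SE 0.16, adjusted p = 0.00434). Of 15 tested hypoxia-inducible genes 6 rose and none fell, with a median of 0.28. INSIG2, which holds back cholesterol synthesis, had 82.7 to 106 FPKM on the second day, with a median of 95.7, against 20.0 to 75 FPKM on the first day, with a median of 39, with no overlap (difference 1.35, SE 0.23, adjusted p = 0.00324). HILPDA, which protects lipid droplets, had 17.7 to 21.7 FPKM on the second day, with a median of 20.3, against 4.9 to 16.4 FPKM on the first day, with a median of 10.6, again with no overlap (difference 0.88, SE 0.18, adjusted p = 0.00785). CA9 and ADM of the same list lay below the filter. Of 5 tested MondoA targets and arrestin-domain genes 3 rose. ARRDC4, an arrestin-domain protein that lowers glucose uptake, had 7.45 to 12.6 FPKM on the second day, with a median of 9.77, against 1.05 to 7.65 FPKM on the first day, with a median of 4.38. The highest first-day value, at 24 h, lay above the lowest second-day value, at 28 h, and the difference was 1.26 (SE 0.24, adjusted p = 0.00538). ARRDC3 differed by 0.86 (SE 0.14, adjusted p = 0.0028). TXNIP, the best known MondoA target, had 166 to 256 FPKM on the second day, with a median of 239, against 26.2 to 276 FPKM on the first day, with a median of 184, and its difference of 0.77 did not pass (adjusted p = 0.0755).

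The promoter of ARRDC4 is shown for its E-box, the letters CACGTG, since MondoA binds elements related to E-boxes. The window is chr15:97960453-97960752, plus strand (GRCh38.p14), with the match in capitals.
ARRDC4: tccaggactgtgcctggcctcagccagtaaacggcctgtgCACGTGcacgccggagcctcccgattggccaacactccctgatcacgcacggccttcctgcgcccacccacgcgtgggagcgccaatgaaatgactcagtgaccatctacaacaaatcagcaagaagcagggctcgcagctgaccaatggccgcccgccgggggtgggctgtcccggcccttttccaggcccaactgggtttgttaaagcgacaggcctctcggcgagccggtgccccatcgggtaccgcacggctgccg
The match starts 210 bases before the RefSeq start. The same letters occur in 7.43% of all promoters of this length.

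Among genes of the mTORC1 pathway NPRL2 and MTOR rose. NPRL2, a subunit of GATOR1, which switches mTORC1 off when amino acids are scarce, had 90.2 to 164 FPKM on the second day, with a median of 126, against 13.9 to 78.4 FPKM on the first day, with a median of 27.7. The gene lies on chromosome 3 from 50347330 to 50351091. The days did not overlap, and the difference was 1.95 (SE 0.23, adjusted p = 0.000891), against −0.38 at pH 7.4 (adjusted p = 0.139). The other GATOR1 genes NPRL3 and DEPDC5 differed by −0.22 and 0.16 and did not pass (adjusted p = 0.413 and 0.687). MTOR, the kinase itself, had 27.1 to 36.7 FPKM on the second day, with a median of 30.9, against 7.89 to 24.7 FPKM on the first day, with a median of 13.1, with no overlap (difference 1.17, SE 0.21, adjusted p = 0.00395). RRAGD, a Rag GTPase that recruits mTORC1 to lysosomes, and LAMTOR5, part of its lysosomal anchor, were chosen after their values were seen and rose by 1.08 (SE 0.14, adjusted p = 0.00133) and 0.82 (SE 0.11, adjusted p = 0.00132). RRAGD rose at pH 7.4 too, by 1.61 (adjusted p = 0.0039). Over the whole list 7 of 27 rose and 1 fell (25.9% and 3.7%, against 17.1% and 12.0% of all genes), and 6 and 3 under upper-quartile or quantile scaling. The list's median of 0.13 was near the 0.06 of all genes.

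Of 34 tested lysosome and autophagy genes 5 rose and 4 fell at pH 6.3, against 12 risen and none fallen at pH 7.4, with medians of 0.10 and 0.36. At pH 6.3 these were 14.7% and 11.8%, near the 17.1% and 12.0% of all genes. At pH 7.4 3.87% of all genes rose and 3.03% fell. The protease gene CTSB rose in both media, by 1.02 (SE 0.09, adjusted p = 0.000269) at pH 6.3 and 1.00 at pH 7.4 (adjusted p = 0.00391). Of 31 tested proteasome genes 6 rose and 4 fell at pH 6.3 and none rose and 7 fell at pH 7.4. The shares at pH 6.3, 19.4% and 12.9%, were also near those of all genes. The proteasome median of 0.11 at pH 6.3 was −0.01 after GC correction. Cytosolic ribosomal protein genes were lower on the second day in both media. Of 76 tested none rose and 48 fell at pH 6.3 and none rose and 42 fell at pH 7.4, with medians of −0.30 and −0.49. Under quantile normalization 5 rose and 12 fell at pH 6.3, and the median was −0.05. RPS2 had 501 to 714 FPKM on the second day, with a median of 630.4, against 900.4 to 1538 FPKM on the first day, with a median of 1150.2, with no overlap (difference −0.90, SE 0.11, adjusted p = 0.000856), and many of these genes share reads with pseudogenes. Of 33 ribosome biogenesis genes 8 rose and 5 fell (24.2% and 15.2%, against 17.1% and 12.0% of all genes). POLR1B, a core subunit of RNA polymerase I, rose by 0.94 (SE 0.13, adjusted p = 0.00171), and the nucleolar protein gene NCL fell by 0.76 (SE 0.11, adjusted p = 0.00212).

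Many replication genes fell on the second acidic day. Of 43 tested genes of replication and G1/S 23 fell and 2 rose, with a median of −0.56, while at pH 7.4 4 fell and none rose, with a median of −0.21. The day effect differed between media in 1 of the 43. E2F1, the factor that switches on S-phase genes, had 1.72 to 2.84 FPKM on the second day, with a median of 2.28, against 3.13 to 21.5 FPKM on the first day, with a median of 8.45. The days did not overlap, most of the drop had come by 16 h, and the difference was −1.52 (SE 0.30, adjusted p = 0.00648). MCM4, a subunit of the replicative helicase, had 62.9 to 98.2 FPKM on the second day, with a median of 76.4, against 118 to 353 FPKM on the first day, with a median of 173, with no overlap (difference −1.29, SE 0.13, adjusted p = 0.000504). MCM5 of the same helicase fell by 1.28 (SE 0.26, adjusted p = 0.007). Both were chosen after their values were seen. With 4 pairs 4 of the 43 fell. The risen POLD3 and RFC4 lost their calls without 1 or more pairs, with adjusted p up to 0.156 and 0.0839.

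Of 35 mitosis and G2/M genes 10 fell and 1 rose, and 7 fell at pH 7.4. FOXM1, the factor that drives G2/M genes, had 40.9 to 67.2 FPKM on the second day, with a median of 54.3, against 67.2 to 113 FPKM on the first day, with a median of 99.4 (difference −0.79, SE 0.10, adjusted p = 0.00125). Its highest second-day value, at 67.2 FPKM, lay just below its lowest first-day value. MKI67, the proliferation marker Ki-67, differed by −0.80 (SE 0.11, adjusted p = 0.00172). AURKA, a mitotic kinase, was the 1 that rose (difference 0.71, SE 0.23, adjusted p = 0.0453), a call lost without any one of 5 pairs (adjusted p up to 0.132), under upper-quartile scaling and after GC correction. Of 13 G1 cyclins, CDKs and inhibitors 4 fell and 1 rose. CDK2 had 37.8 to 47.7 FPKM on the second day, with a median of 42.4, against 56.4 to 104 FPKM on the first day, with a median of 86.9, with no overlap (difference −0.95, SE 0.14, adjusted p = 0.00191). CCND1, cyclin D1, chosen after its values were seen, fell by 0.78 (SE 0.17, adjusted p = 0.00822). HMGA2, a chromatin protein of embryonic and tumour cells, had 24.2 to 32.9 FPKM on the second day, with a median of 31.7, against 52.7 to 184 FPKM on the first day, with a median of 80.1, with no overlap. Its differences had opposite signs, −1.55 (SE 0.20, adjusted p = 0.00132) at pH 6.3 and 0.62 at pH 7.4 (adjusted p = 0.0438). BARD1, the partner of BRCA1, had 3.45 to 13.7 FPKM on the second day, with a median of 6.01, against 9.38 to 47.8 FPKM on the first day, with a median of 33.7, with overlap (difference −1.87, SE 0.31, adjusted p = 0.00314).

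Several of the largest decreases were in genes of secreted proteins. CXCL14, a chemokine gene on chromosome 5 from 135570679 to 135579279 (GRCh38), had 5.72 to 18.4 FPKM on the second day, with a median of 8.99, against 26.2 to 111 FPKM on the first day, with a median of 62.8. It was lower at each later time from 4 to 48 h without exception, and lower again at 52 h, at 4.05 FPKM. Its difference was −2.49 (SE 0.14, adjusted p = 3.2e-05), with no overlap. At pH 7.4 CXCL14 had 77.5 to 96 FPKM on the second day and 48 to 87.1 FPKM on the first, and the difference between media was −2.92 (adjusted p = 0.00201). TGFBI, a matrix protein induced by TGF-β, had 14.4 to 21 FPKM on the second day, with a median of 16.4, against 24.3 to 241 FPKM on the first day, with a median of 75.1, with no overlap (difference −2.07, SE 0.42, adjusted p = 0.00692). CCL24, another chemokine gene, had 0.489 to 1.82 FPKM on the second day, with a median of 0.961, against 2.41 to 12.5 FPKM on the first day, with a median of 7.99, again with no overlap (difference −2.06, SE 0.23, adjusted p = 0.000658). P3H2, a collagen prolyl hydroxylase gene, differed by −1.89 (SE 0.15, adjusted p = 0.000141), SEMA3E, a secreted guidance cue, by −1.77 (SE 0.20, adjusted p = 0.000679), EMP1 by −1.70 (SE 0.20, adjusted p = 0.000881), TMSB15A, an actin-binding thymosin, by −1.72 (SE 0.15, adjusted p = 0.000269), and RGS4, a regulator of G protein signalling, by −1.83 (SE 0.38, adjusted p = 0.00712). Only RGS4 of these had overlapping days.

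Of 23 tested extracellular matrix genes 15 fell and 1 rose, with a median of −0.62, while at pH 7.4 4 fell and 1 rose, with a median of −0.07. In 14 the second-day values lay below all first-day values. THBS1, thrombospondin, had 41.5 to 109 FPKM on the second day, with a median of 67.2, against 157 to 229 FPKM on the first day, with a median of 211, with no overlap (difference −1.58, SE 0.14, adjusted p = 0.000269). It stayed between 204 and 229 FPKM from 4 to 20 h and was lower at each time from 24 h on. COL1A1, type I collagen, had 32.5 to 55 FPKM on the second day, with a median of 47.6, against 75.6 to 225 FPKM on the first day, with a median of 121, with no overlap (difference −1.32, SE 0.19, adjusted p = 0.00179). LOX, the enzyme that cross-links collagen, was the 1 that rose, at 22.7 to 35 FPKM on the second day, with a median of 31.5, against 10.2 to 16.8 FPKM on the first day, with a median of 11.6, with no overlap (difference 1.24, SE 0.14, adjusted p = 0.000637). With 4 pairs 8 of the 23 still fell and LOX still rose.

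Most tested targets of YAP and of SRF fell as well. Of 10 tested YAP and TEAD targets and regulators 7 fell and 1 rose, with a median of −0.56, and at pH 7.4 1 rose and 1 fell. CTGF, a matricellular protein and classical YAP target, had 54.7 to 102 FPKM on the second day, with a median of 90.0, against 95.9 to 527 FPKM on the first day, with a median of 256. Its highest values were at 4 and 8 h, its 24 h value lay just below that at 28 h, and its difference was −1.58 (SE 0.22, adjusted p = 0.00155). CYR61, a related protein, had 193 to 255 FPKM on the second day, with a median of 211, against 256 to 1234 FPKM on the first day, with a median of 467, with no overlap (difference −1.15, SE 0.23, adjusted p = 0.00603). AJUBA, the 1 that rose (difference 0.47, SE 0.13, adjusted p = 0.0272), lost its call without 3 of the pairs (adjusted p up to 0.0725) and under upper-quartile and quantile scaling. Of 15 actin and SRF targets 12 fell and none rose, with a median of −0.80. At pH 7.4 5 fell, with a median of −0.43, and the day effect differed between media in 2 of the 15. CNN1, calponin, had 11.7 to 16 FPKM on the second day, with a median of 12.8, against 15.4 to 80.4 FPKM on the first day, with a median of 38.7, with overlap through its 24 h value, and TAGLN, transgelin, 37.2 to 66.6 FPKM on the second day, with a median of 51.4, against 71 to 149 FPKM on the first day, with a median of 129.7, with none. Their differences were −1.42 (SE 0.28, adjusted p = 0.00642) and −1.18 (SE 0.16, adjusted p = 0.00151) at pH 6.3 and −1.62 and −1.82 at pH 7.4 (adjusted p = 0.00169 and 0.00786). ACTB, a common reference gene, had 854 to 1256 FPKM on the second day, with a median of 1085, against 1278 to 3029 FPKM on the first day, with a median of 1957, with no overlap (difference −0.93, SE 0.09, adjusted p = 0.000458).

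The promoter of CTGF is shown because it is the strongest fallen member of the list and holds 3 matches to GGAATG, the letters that TEAD factors, the partners of YAP, bind. The window is chr6:131951323-131951622, minus strand (RefSeq, GRCh38.p14), written on the gene's strand with the matches in capitals.
CTGF: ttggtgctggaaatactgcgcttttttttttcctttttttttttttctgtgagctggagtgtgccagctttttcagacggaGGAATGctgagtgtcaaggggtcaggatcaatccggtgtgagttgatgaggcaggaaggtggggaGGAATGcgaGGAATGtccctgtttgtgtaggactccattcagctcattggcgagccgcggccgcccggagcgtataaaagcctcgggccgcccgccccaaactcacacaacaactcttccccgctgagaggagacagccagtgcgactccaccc
The matches start 169, 104 and 95 bases before the RefSeq start. Of the 8 list members with a RefSeq promoter here, 4 held a match on either strand, against 14.0% of all promoters. CTGF and YAP1 of these fell, and ANKRD1 and LATS2 did not pass the test.

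Clock genes moved in both directions. Of 16 tested core clock genes 6 fell and 3 rose at pH 6.3, and 1 rose and none fell at pH 7.4, with medians of −0.64 and −0.04. HLF and CIART lay below the filter. TEF, a PAR bZIP output factor, had 2.35 to 4.93 FPKM on the second day, with a median of 4.19, against 7.09 to 25.6 FPKM on the first day, with a median of 15.7. It peaked at 12 h, the days did not overlap, and the difference was −1.69 (SE 0.27, adjusted p = 0.00277). DBP, its close relative, had 2.71 to 5.5 FPKM on the second day, with a median of 3.02, against 5.74 to 18.6 FPKM on the first day, with a median of 11.3, with no overlap (difference −1.31, SE 0.27, adjusted p = 0.00673). PER3, chosen after its values were seen, had a median of 9.66 FPKM on the second day, against 17.2 FPKM on the first (difference −1.01, SE 0.20, adjusted p = 0.00574). PER1 and PER2 differed by −1.05 and −1.15 (adjusted p = 0.0307 and 0.0187), calls lost without 4 and 2 of the pairs (adjusted p up to 0.102 and 0.0618). BHLHE41 also fell and lost its call without 2 pairs (adjusted p up to 0.0631). NFIL3, the repressor that opposes DBP and TEF, moved the other way, at 25.1 to 30.0 FPKM on the second day, with a median of 27.5, against 8.35 to 23.8 FPKM on the first day, with a median of 11.2, with no overlap (difference 1.09, SE 0.17, adjusted p = 0.00275). NPAS2, a stand-in for CLOCK, had 40.9 to 68.9 FPKM on the second day, with a median of 58.8, against 15.2 to 36.4 FPKM on the first day, with a median of 24.9, with no overlap (difference 1.15, SE 0.21, adjusted p = 0.00436), and rose by 1.34 at pH 7.4 (adjusted p = 0.00212). ARNTL differed by 0.53 (SE 0.14, adjusted p = 0.0205), a call lost without 2 pairs (adjusted p up to 0.0772). Partners in a pair were 24 h apart, so these values compare the same phases only for a rhythm of 24 h. The period was not tested. With 4 pairs 1 of the 16 rose and 1 fell.

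The promoter of TEF is shown for the E-box through which ARNTL and CLOCK act on output genes. The window is chr22:41367205-41367504, plus strand (RefSeq, GRCh38.p14), with CACGTG in capitals.
TEF: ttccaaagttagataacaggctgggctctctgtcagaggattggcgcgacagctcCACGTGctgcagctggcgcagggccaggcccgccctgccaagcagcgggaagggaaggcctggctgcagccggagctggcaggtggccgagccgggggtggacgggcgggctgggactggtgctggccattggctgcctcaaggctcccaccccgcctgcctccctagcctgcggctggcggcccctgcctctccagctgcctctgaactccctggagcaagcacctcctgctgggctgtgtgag
The match starts 195 bases before the RefSeq start. All 16 tested clock genes had a promoter in the table, and PER1, TEF, BHLHE40 and BHLHE41 held the letters. PER1, TEF and BHLHE41 fell and BHLHE40 did not pass.

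Of 16 tested glucocorticoid targets 2 rose and 4 fell, with a median of −0.24. These are 12.5% and 25.0%, against 17.1% and 12.0% of all genes. SGK1, a kinase that dexamethasone induces, had 13 to 19.6 FPKM on the second day, with a median of 15.5, against 27.2 to 62.9 FPKM on the first day, with a median of 42.2, with no overlap (difference −1.35, SE 0.17, adjusted p = 0.00122), against 0.04 at pH 7.4. SCNN1A, a sodium channel subunit, had 38.5 to 59.9 FPKM on the second day, with a median of 53.9, against 8.18 to 50.8 FPKM on the first day, with a median of 27.5, with overlap (difference 1.14, SE 0.26, adjusted p = 0.0112). Of 11 immediate early genes 1 rose and 2 fell. KLF6 had differences of opposite sign, −0.75 (SE 0.16, adjusted p = 0.00822) at pH 6.3 and 0.72 at pH 7.4 (adjusted p = 0.012). Of 10 ERK output and feedback genes 3 fell and none rose, and FOSL1 differed by −1.26 (SE 0.30, adjusted p = 0.0124).

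Chaperone genes of the heat shock response fell or did not pass. Of 13 tested 9 fell (69.2%, against 12.0% of all genes) and none rose, with a median of −0.56. At pH 7.4 2 fell and none rose, with a median of −0.29. The day effect differed between media in 0 of the 13. HSP90AA1 had 110.0 to 174 FPKM on the second day, with a median of 135, against 179.9 to 346 FPKM on the first day, with a median of 283, with no overlap (difference −0.94, SE 0.10, adjusted p = 0.00048), and the small heat shock protein gene HSPB1 differed by −1.52 (SE 0.29, adjusted p = 0.00505). Genes of endoplasmic reticulum stress gave 4 risen and 5 fallen of 26 (15.4% and 19.2%, against 17.1% and 12.0% of all genes). ATF6, a stress sensor, rose by 0.65 (SE 0.13, adjusted p = 0.00695), and the lectin chaperone gene CALR fell by 0.51 (SE 0.09, adjusted p = 0.00347). Of 15 NRF2 targets 2 rose and 5 fell (13.3% and 33.3%). NQO1 fell by 0.87 (SE 0.11, adjusted p = 0.000913) and the ferritin gene FTH1 rose by 0.46 (SE 0.07, adjusted p = 0.00226). Of 24 p53 targets 2 rose and 1 fell (8.33% and 4.17%). None of the 13 genes of mitochondrial DNA passed in either direction, and under quantile normalization 4 rose and 1 fell. Of 43 nuclear respiratory chain genes 8 rose and 6 fell (18.6% and 14.0%), near the shares of all genes. NDUFS1 was among the risen (difference 0.91, SE 0.15, adjusted p = 0.00281).

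The remaining groups split or changed little, and over all tested genes 17.1% rose and 12.0% fell. Of 24 cholesterol genes 1 rose and 4 fell, and of 11 fatty acid synthesis genes 2 rose and 1 fell, among the risen ELOVL5 (difference 0.60, SE 0.12, adjusted p = 0.0074). Of 14 FOXO factors and targets 4 rose and 2 fell. FBXO32, a ubiquitin ligase gene, had 49.4 to 58 FPKM on the second day, with a median of 55.6, against 8.9 to 47.1 FPKM on the first day, with a median of 24.5, with no overlap (difference 1.25, SE 0.28, adjusted p = 0.0111), and rose by 1.48 at pH 7.4 (adjusted p = 0.00703). Of 10 genes of proton, bicarbonate and lactate handling 4 fell and none rose. CA12, a cell-surface carbonic anhydrase, had 1.72 to 2.93 FPKM on the second day, with a median of 2.19, against 2.45 to 19.8 FPKM on the first day, with a median of 8.31, with overlap (difference −1.43, SE 0.28, adjusted p = 0.0056). Of 8 BH3-only and death receptor genes 1 rose, BMF (difference 1.28, SE 0.24, adjusted p = 0.00456). Of 9 histone genes found in polyadenylated RNA 3 rose and 3 fell, among the fallen H2AFX (difference −1.03, SE 0.17, adjusted p = 0.00294). Of 10 housekeeping genes 6 fell and none rose, with a median of −0.53. The list medians of endoplasmic reticulum stress, p53 targets, mitochondrial DNA, nuclear respiratory chain, histone and proteasome genes lay near 0 and changed sign under 1 or more of upper-quartile scaling, quantile normalization and GC correction. The neutral medians of clock and matrix genes did so under GC correction.

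**Figure D4:**
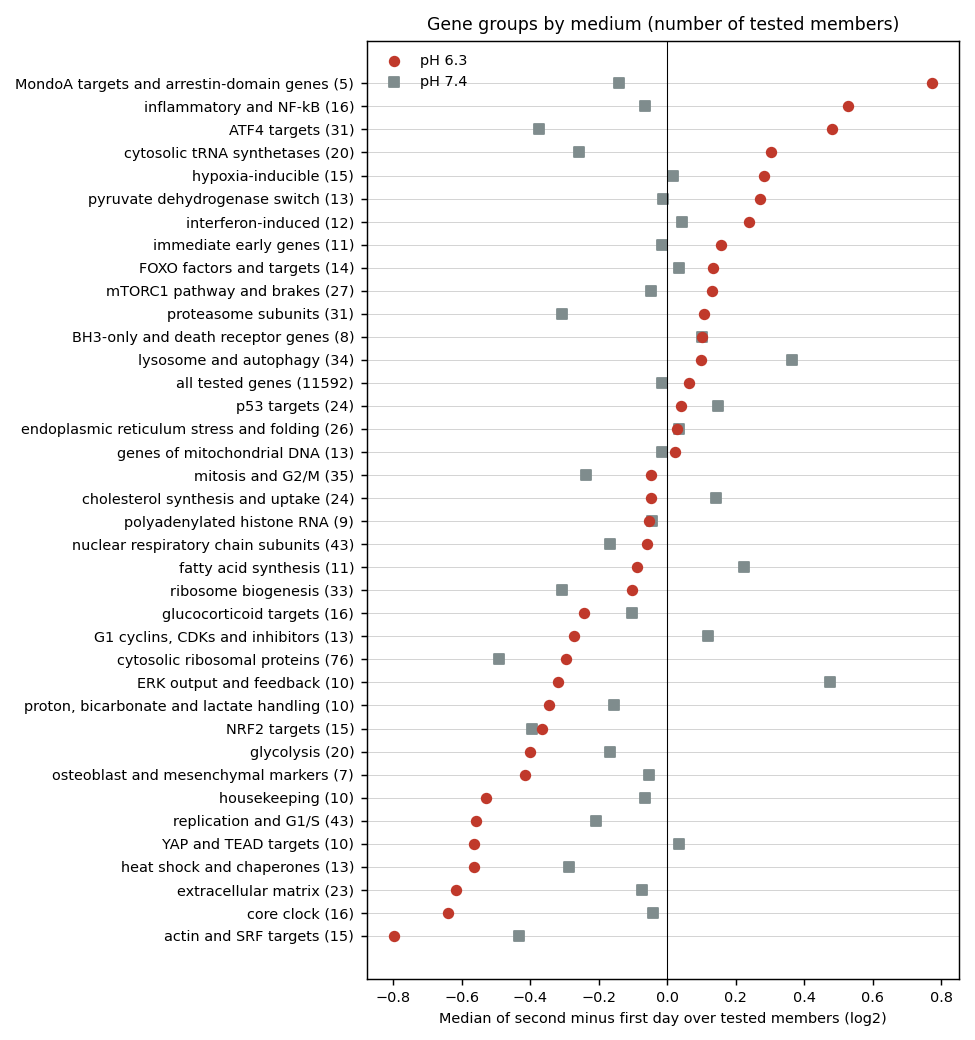
Median second minus first day difference (log2(FPKM + 1) scale) over the tested members of each gene list, at pH 6.3 (red circles) and pH 7.4 (grey squares), with the number of tested members in brackets (leukocyte, epithelial and endothelial markers are not plotted). At pH 6.3 MondoA targets and arrestin-domain genes, inflammatory genes and ATF4 targets stood highest, at 0.77, 0.53 and 0.48. The first of these lists had only 5 tested members, of which 3 rose, against 16 and 31 tested in the other lists. Actin and SRF targets stood lowest, at −0.80, against 0.06 over all tested genes.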

How the data were processed

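RNA from U2OS dishes was sequenced as poly(A)-selected, strand-marking libraries. The authors deposited 1 table of FPKM for 26 libraries, made with STAR, Cufflinks and hg38 per the submitters' processing notes; tool versions, annotation and strandedness were not given in the sources used here. Its 19806 rows were 98.1% protein-coding. Symbols on several rows kept the row with the highest mean, leaving 19704. IDs were matched to GENCODE 29 for coordinates (19545 matched). Depth was estimated from whole-number steps of low values (87.9% to 94.0% within 0.1 of a whole number). That share was too low to treat the values as recovered reads, so no count model was run.

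Values were tested as log2(FPKM + 1) with limma 3.58.1 in R 4.3.3 (moderated test with a mean trend, two-sided, Benjamini-Hochberg over 11592 genes averaging 1 FPKM or more in the 12 pH 6.3 libraries), with the harvest pair as a block. The pairing comes from the labels, which say that samples 24 h apart were harvested together. Correlations of the partners' deviations from their day means across genes were −0.05, 0.09, −0.05, 0.13, 0.42 and −0.24. The difference between media was the pH by day term. The procedure was tested on simulated data. Named genes were the 12 largest increases and decreases that reached a mean of 5 FPKM in either day and had 1 direction in 6 of 6 pairs, the 2 largest called changes each way in each of 40 gene and marker lists, and the 5 largest differences between media each way, 129 in all; not all are described, and the results of some genes are not reported here. The contrast, lists and members were chosen with earlier results of these data known. Alternatives were another pseudocount, other filters, upper-quartile, quantile and GC-corrected values, no replicate block, 52 h added and pairs left out.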

Additional observations from a re-analysis of the deposited data

Results flagged for a closer look

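Single libraries stood apart for 7 gene and day combinations of the 258 screened at pH 6.3 (named genes, each day), where chance alone would mark about 1 in 20. BSG and RPS28 lost their call between the days without 2 and 5 of the pairs (adjusted p up to 0.0738 and 0.0764). The gap to the nearest other library passed Dixon's critical value for 6 libraries. BSG, a partner of lactate transporters, had 555 FPKM at 20 h, against 202 to 279 FPKM in the other 5 first-day libraries. The ribosomal protein gene RPS28 had 361 FPKM at 20 h, against 67.4 to 118 FPKM, in the same library whose deviations followed GC content most closely. LOX had 16.8 FPKM at 24 h, against 10.2 to 12.2 FPKM, and THBS1 had 157 FPKM at 24 h, against 204 to 229 FPKM. On the second day COL1A1 had 32.5 FPKM at 40 h, against 45.7 to 55.0 FPKM in the other 5 libraries. RPS27L had 676 FPKM at 40 h, against 603 to 629 FPKM. RRN3, an initiation factor of RNA polymerase I, had 8.60 FPKM at 48 h, against 7.29 to 7.62 FPKM.

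Values are given here for 58 named genes whose second minus first day difference at pH 6.3 differed from that at pH 7.4, by limma's test of the difference between media (adjusted p from 0.00201 to 0.0492 over 11592 genes). All values that follow are that difference, pH 6.3 minus pH 7.4, on the log2(FPKM + 1) scale. The 14 that passed without each pair in turn were 2.84 for AKR1C1, 2.91 for C8orf4, 1.91 for MPC1, 2.33 for NPRL2, 3.20 for SAA1, 3.31 for SAA2, 1.47 for SOD2 and 2.42 for SULF1, and −2.92 for CXCL14, −2.20 for FABP7, −2.34 for FMNL2, −2.17 for HMGA2, −1.39 for SGK1 and −1.60 for TMSB15A. With 4 pairs their adjusted p ran from 0.0521 for SAA1 to 0.237 for SGK1. The other 44 were each lost without 1 or more pairs. Of genes named only here, MT2A, PSMA5, PSMC4, RB1, SYVN1 and HMGCS1 also lost their call between the acidic days without 1 or more pairs (adjusted p up to 0.112, 0.0602, 0.058, 0.0509, 0.0725 and 0.0517).

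Secreted, matrix and adhesion genes among these 44 gave 2.58 for CXCL8, 1.46 for LOX and 1.89 for GBP2 towards higher, and −1.91 for CCL24, −2.07 for CDH12, −1.07 for CTGF, −1.21 for CYR61, −1.33 for P3H2, −1.26 for SEMA3E and −1.92 for EMP1 towards lower. Stress and tRNA charging genes gave 1.14 for TRIB3, 0.97 for EPRS, 0.95 for RARS, 0.92 for SYVN1 and 0.84 for MT2A, and the metabolic enzyme genes of catalase and cholesterol synthesis gave −0.83 for CAT and −0.80 for HMGCS1. Genes of nutrient sensing and energy gave 1.28 for MTOR, 1.24 for ARRDC4, 1.04 for INSIG2, 1.03 for HILPDA, 1.02 for NDUFB10 and 0.85 for NDUFS1. Protein turnover and ribosome genes gave 0.98 for PSMA5, 1.12 for PSMC4, 1.13 for POLR1B and 0.97 for RRN3 towards higher, and the lysosomal protease gene CTSZ gave −0.79. Cell cycle genes gave 1.14 for AURKA, 0.70 for RB1, −1.97 for BARD1 and −0.73 for MKI67. Clock genes gave 1.20 for NFIL3, −1.74 for DBP and −1.59 for TEF. Cytoskeletal, immediate early and housekeeping genes gave −0.60 for ACTB, 0.66 for AJUBA, −1.47 for KLF6 and −0.87 for HPRT1. The remaining genes gave 2.76 for RP11-598P20.5, 2.04 for EAF2, 1.89 for GBP2, 1.81 for RANBP3L, 1.74 for BEX5 and −1.85 for GPR137C.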

How the results depend on the processing

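At pH 6.3 the counts stayed within 1.5 times the reported 1985 risen and 1394 fallen genes under a pseudocount of 0.1, filters at a mean of 5 FPKM, over all 26 libraries or none, upper-quartile and quantile scaling, GC correction, no replicate block, and 52 h added. Leaving out 1 pair in turn gave 908 to 2415 risen and 699 to 1848 fallen genes, and with the 8 and 32 h and the 20 and 44 h pairs both left out 314 rose and 213 fell. At pH 7.4 the fallen count was 228 under quantile normalization and 724 after GC correction. Leaving out 1 pair there gave 71 to 1256 risen and 47 to 1641 fallen genes. With 4 pairs limma called 0 higher and 0 lower at pH 7.4, with 1174 genes at an unadjusted p under 0.05. The difference between media gave 1225 higher and 649 lower after GC correction, 1329 and 768 with no replicate block, and 1687 and 1033 with 52 h added and no replicate block. Leaving out 1 pair gave 24 to 1124 higher and 29 to 761 lower. With 4 pairs limma called 0 higher and 0 lower, with 1326 genes at an unadjusted p under 0.05. Leaving out 1 pair raised some of these counts and lowered others, and the cause was not tested. Without the pairing block 2156 genes rose and 1499 fell at pH 6.3, and of the genes described ARNTL, PER1, MT2A and SYVN1 lost their call. No named gene changed direction under any of these settings. Depth limits low genes most, in the 8 h library at pH 6.3 and the 12 h library at pH 7.4, and FPKM give no amount of RNA per cell.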

Other observations

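A few genes named for their difference between media belong to no list. FABP7, a fatty acid-binding protein of glia and tumours, had 1.45 to 5.72 FPKM on the second day, with a median of 3.06, against 4.84 to 15.8 FPKM on the first day, with a median of 9.48, with overlap (difference −1.34, SE 0.14, adjusted p = 0.000555). In neutral medium it had 17.1 to 26.2 FPKM on the second day and 8.98 to 17.8 FPKM on the first. FMNL2, a formin that builds actin filaments, had 0.414 to 0.945 FPKM on the second day, with a median of 0.549, against 0.999 to 5.87 FPKM on the first day, with a median of 1.87, with no overlap (difference −1.01, SE 0.21, adjusted p = 0.0078), and 7.39 to 18.5 FPKM on the second day and 3.27 to 7.43 FPKM on the first at pH 7.4. Both genes had a difference towards lower at pH 6.3 and higher at pH 7.4 (0.86 and 1.32, adjusted p = 0.0173 and 0.00281 for the neutral values). CDH12, a neural cadherin, differed by −1.59 (SE 0.25, adjusted p = 0.0024) at pH 6.3 and by 0.48 at pH 7.4.

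Most markers of other tissues lay below the filter. Of 7 tested osteoblast and mesenchymal markers 1 rose and 3 fell, and their sum was 606 to 829 FPKM on the second day and 881 to 1124 FPKM on the first. RUNX2 and ALPL differed by 0.02 and −0.07 (adjusted p = 0.958 and 0.77). Of 10 epithelial markers 4 were tested and 1 fell, with a sum of 149 to 217 FPKM on the second day and 178 to 327 FPKM on the first, and CLDN3 was listed at 0. Of 8 endothelial markers EGFL7 alone was tested, with 1.06 to 2.82 FPKM on the second day and 2.45 to 10.8 FPKM on the first. Its difference was −0.85 (SE 0.24, adjusted p = 0.0258), a call lost without 4 of the pairs (adjusted p up to 0.0706) and after GC correction.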
